A study of Mus musculus with 6 samples.

Results

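The genes described here are 9 cytokine and growth factor signalling genes of blood stem cells other than Kit, found by their symbols in the deposited expression table, where all 9 of the 9 listed symbols were present among 15553 genes. They are Angpt1, Tek, Il6st, Csf3r, Csf2rb, Ifnar1, Ifnar2, Ifngr1 and Il1r1. Angpt1 encodes a secreted ligand, angiopoietin-1, and the other 8 encode receptors or receptor subunits. RNA was sequenced from mouse bone marrow stem and progenitor cells, in 3 libraries labelled Yy1-KO (genotype Yy1f/f;Mx1-Cre) and 3 labelled WT (genotype Mx1-Cre). All 6 samples were of the C57BL/6 strain, from animals 6 to 8 weeks old, and both groups carried the Mx1-Cre transgene. Cre was thus driven in both by an interferon-inducible promoter, which is also active in cells outside the blood stem cell pool. The treatment that induced it was not given in the sources used here. YY1 is a zinc-finger transcription factor, and the series asks what it does for the quiescence of these stem cells. The sorted cells were negative for lineage markers and CD48 and positive for Sca1 and c-Kit. Both CD150-positive and CD150-negative cells are named in the extraction protocol, and the source field of the samples names CD150-positive cells alone.

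Cytokine receptors let stem cells read signals from their niche and from infection. The shared chain gp130 (Il6st), the G-CSF receptor (Csf3r) and the common beta chain (Csf2rb) belong to one receptor class, and the interferon receptor chains (Ifnar1, Ifnar2, Ifngr1) to a related class. Both classes lack a kinase of their own and signal through Janus kinases, which phosphorylate STAT transcription factors. The IL-1 receptor (Il1r1) signals instead through the adaptor MyD88 and IRAK kinases to NF-kB, and TIE2 (Tek) is a receptor tyrosine kinase. In mouse bone marrow, angiopoietin-1 acting on TIE2 is known for holding stem cells in quiescence, while interferons and IL-1 are known to push them into division.

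Library totals over all listed genes, as reads recovered from the deposited values, were 19473174 to 21757031 in Yy1-KO libraries and 15102984 to 18460012 in WT libraries. Single members had between 215 and 19931 reads in a library. Yy1 itself stood at 36.2, 16.6 and 28.5 RPKM (reads scaled to gene length and a library size) in the Yy1-KO libraries, against 31.6, 42.3 and 52.1 RPKM in WT libraries. The library labelled Yy1-KO replicate 1 lay within the WT range and thus went against its label at this gene. The deleted stretch of the gene is unknown here, so reads from outside it may remain. For Yy1 the log2 fold change was -0.66 (limma adjusted p = 0.680). WT replicate 3 stood apart from the other 5 libraries on the first principal component, which held 34.6% of the variance. It had 1991 genes listed at 0, against 373 to 1099 in the other 5 libraries. The labels do not say whether each library came from its own mouse, so p-values measure only the spread between libraries, which may be technical. The stem cell transcription factor gene Hlf stood at 86.7 to 93.4 RPKM in Yy1-KO libraries and 126 to 144 RPKM in WT libraries, and Kit at 76.6 to 82.6 RPKM in Yy1-KO and 112 to 140 RPKM in WT. Of 13 stem cell markers tested, 0 passed the test described next, 3 were lower at an unadjusted p under 0.05 (Hlf, Kit and the endoglin gene Eng), where 3.06% of all tested genes were, and the median log2 fold change was -0.26. The authors' deposited table called 2 of these markers, Hlf at an adjusted p of 0.0384 and Kit at 0.0118. It called 24 of its 15553 genes (0.154%). Eng averaged 20.1 ± 2.08 RPKM in Yy1-KO and 31.9 ± 8.23 RPKM in WT (SD, n = 3 each). The sort itself used c-Kit protein.

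Most of the 9 genes had lower average log2 levels in Yy1-KO than in WT, and the difference did not pass the test for any of them. The log2 fold change of Yy1-KO over WT was below 0 for 6 members and above 0 for 3 (Il6st, Csf2rb and Ifnar2), with a median of -0.37. Over all tested genes, 48.1% lay below 0 and the median was 0.02. Angpt1, Ifngr1 and Il1r1 were lower in every Yy1-KO library than in any WT library, which is 3 of 9 members, where 6.87% of tested genes separated in that direction. No member (0 of 9) was higher in every Yy1-KO library, where 7.63% of tested genes were. Without WT replicate 3 and the library labelled Yy1-KO replicate 1, 7 members lay below 0. Csf3r, Ifnar1, Ifngr1, Il1r1 and Angpt1 (5 of 9) were then lower in both remaining Yy1-KO libraries than in either WT library, where 19.3% of tested genes were, and Il6st and Ifnar2 (2 of 9) were higher, where 19.4% were.

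The test was limma on log2(RPKM + 0.5) with Benjamini-Hochberg adjustment over all 13179 genes that had at least 1 RPKM in at least 3 libraries, and all 9 members entered it. Members' adjusted p ran from 0.559 to 0.963, and 0 of the 13179 genes (0%) passed at 0.05. Angpt1 alone had an unadjusted limma p under 0.05, where 7.79% of tested genes did.

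**Figure D1:**
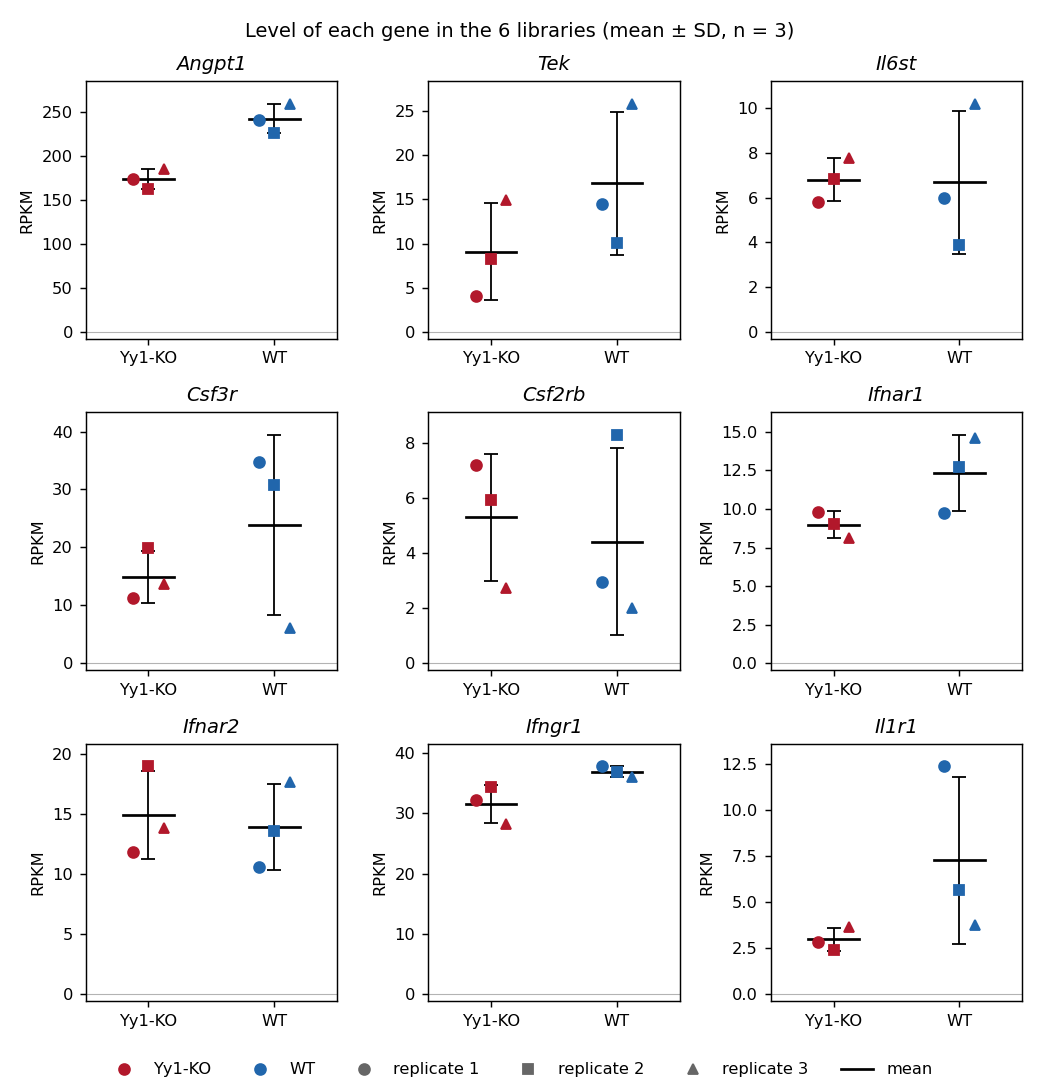
RPKM of the 9 genes in each of the 3 Yy1-KO and 3 WT libraries (symbols mark the replicate), with the mean and SD of each genotype. Angpt1 stands at 162 to 185 RPKM in Yy1-KO and 226 to 259 RPKM in WT without overlap, while Csf3r spans 6.07 to 34.7 RPKM within WT.

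Angpt1 was by far the most abundant of the 9, per length, in both genotypes, and its mean over the 6 libraries exceeded that of 98.5% of tested genes. Ifngr1 came second in both genotypes, and neither gene overlapped in level with the next in order. In Yy1-KO libraries the order of mean RPKM then ran Ifnar2, Csf3r, Tek, Ifnar1, Il6st, Csf2rb and Il1r1. In WT libraries it ran Csf3r, Tek, Ifnar2, Ifnar1, Il1r1, Il6st and Csf2rb. Neighbours in the order overlapped in 5 of 8 pairs in Yy1-KO and in 6 of 8 pairs in WT, so most of the lower ranks were not separated by more than the spread of their libraries.

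How much a gene varied among libraries differed among the members. Ifngr1 was the steadiest, with a 1.34-fold span between its lowest and highest library, followed by Angpt1 with 1.60-fold. Tek spanned 6.43-fold, Csf3r 5.72-fold, Il1r1 5.09-fold and Csf2rb 4.14-fold. WT replicate 3 held the highest value of 4 members and the lowest of 2, and WT replicate 1 the highest of 3. The lowest values were spread over the libraries, with 1 or 2 in each. The library labelled Yy1-KO replicate 1 held the highest value of 0 members and the lowest of 1, Tek.

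**Figure D2:**
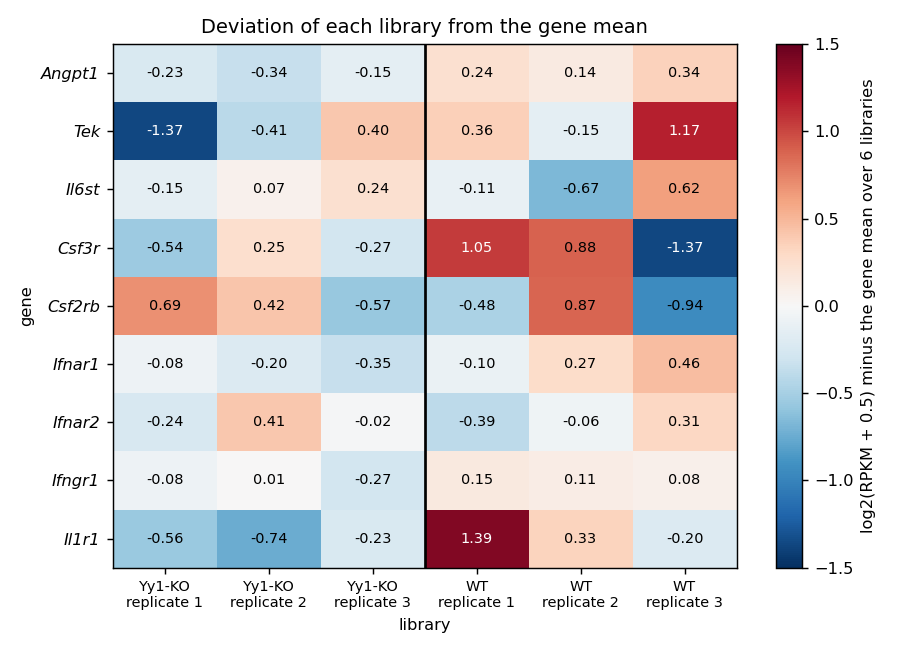
Each cell gives a library's log2(RPKM + 0.5) for a gene minus that gene's mean over the 6 libraries, with Yy1-KO libraries left of the line and WT libraries right of it. Angpt1 is negative in all 3 Yy1-KO libraries and positive in all 3 WT libraries, while Csf3r reaches 1.05 in WT replicate 1 and -1.37 in WT replicate 3.

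Promoters are shown for the 2 members that separated the genotypes and have a RefSeq promoter entry, and for the 1 member with a match to the YY1 motif. RefSeq gave 8 promoter entries for 7 of the members (build GRCm38.p6), with 2 starts for Il1r1. Angpt1 and Csf2rb had no entry. The motif CCATNTT was searched on both strands in the 250 bases before each start, and 12.4% of 32851 promoters held it. Of the members' promoters 1 held it, that of Il6st, on the opposite strand, 234 to 228 bases before the start. The absence of these letters in the other windows says nothing about where YY1 binds. The sequences run 5′ to 3′ on the gene's strand (plus for all 3) and end at the base before the start, and capitals mark the motif match. They lie at chr13:112463820-112464069 (Il6st), chr10:19591699-19591948 (Ifngr1) and chr1:40224830-40225079 (Il1r1, the start at the gene's 5′ end).
Il6st: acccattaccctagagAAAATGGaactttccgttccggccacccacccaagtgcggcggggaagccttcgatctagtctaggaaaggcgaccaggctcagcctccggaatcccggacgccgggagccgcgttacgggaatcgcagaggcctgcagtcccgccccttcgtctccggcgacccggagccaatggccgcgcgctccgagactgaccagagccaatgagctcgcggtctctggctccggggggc
Ifngr1: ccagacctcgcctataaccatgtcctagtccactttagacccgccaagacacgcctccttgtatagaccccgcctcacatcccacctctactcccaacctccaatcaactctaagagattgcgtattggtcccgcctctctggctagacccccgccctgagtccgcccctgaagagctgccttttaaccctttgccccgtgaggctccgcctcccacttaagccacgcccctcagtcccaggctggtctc
Il1r1: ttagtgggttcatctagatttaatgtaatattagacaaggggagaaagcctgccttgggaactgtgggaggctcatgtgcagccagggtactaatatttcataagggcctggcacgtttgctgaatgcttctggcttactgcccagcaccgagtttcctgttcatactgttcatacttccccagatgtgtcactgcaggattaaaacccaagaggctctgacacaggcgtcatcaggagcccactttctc

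Angpt1, the ligand of TIE2, stood at 174, 162 and 185 RPKM in Yy1-KO replicates 1 to 3, against 241, 226 and 259 RPKM in WT replicates 1 to 3. Every Yy1-KO library lay below every WT library, and the lowest WT value was above the highest Yy1-KO value. The means were 174 ± 11.4 RPKM in Yy1-KO and 242 ± 16.7 RPKM in WT (SD, n = 3 each, as for all later means). The log2 fold change was -0.48 (standard error, SE, 0.15; 95% interval -0.83 to -0.12), and the limma adjusted p was 0.559 (unadjusted 0.0153). The gene (ENSMUSG00000022309, chromosome 15: 42424723 to 42676977, minus strand, mm10) was covered by 14763 to 18808 reads in Yy1-KO and 16215 to 19931 in WT. Counting error was therefore small beside the spread between libraries. The antisense gene Gm17473 overlaps it and had at most 1.04 RPKM in Yy1-KO and at most 2.37 RPKM in WT. In the authors' deposited table, the log2 fold change of Angpt1 was -0.47 and its adjusted p 0.138. In bulk RNA, fewer cells of a type and less RNA per cell cannot be told apart.

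Stromal cells of the marrow also make angiopoietin-1. The 7 stromal markers measured summed to 2.55 to 4.40 RPKM in Yy1-KO and 4.54 to 5.30 RPKM in WT. Among them, Cxcl12 was at most 0.035 RPKM in Yy1-KO and 0.471 RPKM in WT, and Kitl at most 0.297 RPKM in Yy1-KO and 0.0403 RPKM in WT. Of the list, 5 of 7 were below 1 RPKM in every library, and the most abundant 2 were the PDGF receptor gene Pdgfrb and the fibronectin gene Fn1. Fn1 was at 1.42 to 1.84 RPKM in Yy1-KO and 0.818 to 1.01 RPKM in WT, the reverse order of the sum. Pdgfrb was at 0.420, 1.61 and 0.916 RPKM in Yy1-KO and 2.56, 3.93 and 3.11 RPKM in WT, and without it the other 6 summed to 2.13 to 2.80 RPKM in Yy1-KO and 1.37 to 2.18 RPKM in WT. Means were higher in Yy1-KO for 4 of the 7, Fn1, Kitl, the collagen gene Col1a1 and the adhesion molecule gene Vcam1, which was at 0.0194 to 0.802 RPKM in Yy1-KO and listed at 0 in each WT library. The lower stromal sum in Yy1-KO thus came from Pdgfrb, and the part of stromal RNA in the Angpt1 values was not tested.

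Tek, the TIE2 receptor gene, stood at 4.01, 8.30 and 14.9 RPKM in Yy1-KO replicates 1 to 3, against 14.5, 10.1 and 25.8 RPKM in WT replicates 1 to 3. Yy1-KO replicate 3 lay above 2 of the WT libraries, so the genotypes overlapped. The means were 9.06 ± 5.47 RPKM in Yy1-KO and 16.8 ± 8.12 RPKM in WT. The log2 fold change was -0.92 (SE 0.52, 95% interval -2.13 to 0.29, limma adjusted p = 0.723). Its size rested on single libraries. It was -0.47 without the library labelled Yy1-KO replicate 1, -0.57 without WT replicate 3 and -0.11 without both, and it was -1.35 without Yy1-KO replicate 3 and -1.23 without WT replicate 2, all below 0. Tek (ENSMUSG00000006386) lies on chromosome 4 from 94739289 to 94874976 on the plus strand and was covered by 329 to 1369 reads in Yy1-KO and 763 to 1797 in WT.

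TIE2 is also an endothelial receptor. The 7 endothelial markers measured summed to 65.6, 60.8 and 56.1 RPKM in Yy1-KO replicates 1 to 3 and to 84.2, 52.8 and 78.3 RPKM in WT replicates 1 to 3. Most of that sum came from Tie1 and Esam, which stem cells also express. The lowest of the list were the VEGF receptor gene Kdr, at most 0.848 RPKM in Yy1-KO and 0.682 RPKM in WT, and the scavenger receptor gene Stab2. Stab2 was at most 0.496 RPKM in Yy1-KO and 0.610 RPKM in WT. Pecam1 was at 8.78 to 11.4 RPKM in Yy1-KO and 8.07 to 13.8 RPKM in WT. Emcn was at 2.67 to 5.05 RPKM in Yy1-KO and 2.67 to 6.81 RPKM in WT. Vwf was at 3.17 to 5.29 RPKM in Yy1-KO and 2.97 to 3.33 RPKM in WT. The part of endothelial RNA in the Tek values was not tested. Tie1, the co-receptor of TIE2, averaged 21.9 ± 2.58 RPKM in Yy1-KO and 24.8 ± 10.7 RPKM in WT, a log2 fold change of -0.10 (SE 0.31). The RPKM ratio of Tek to Angpt1 was 0.0231, 0.0512 and 0.0804 in Yy1-KO and 0.0600, 0.0446 and 0.0996 in WT, so ligand RNA exceeded receptor RNA in each library and the ratios overlapped. Of 6 further angiopoietin pathway genes tested, 0 passed over all genes. Dok2, an adaptor recruited to TIE2, averaged 15.2 ± 1.12 RPKM in Yy1-KO and 8.26 ± 4.0 RPKM in WT (limma adjusted p = 0.606).

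Il6st, the gp130 chain shared by receptors of the IL-6 family, stood at 5.82, 6.83 and 7.76 RPKM in Yy1-KO replicates 1 to 3 and 5.97, 3.89 and 10.2 RPKM in WT replicates 1 to 3. The WT range enclosed all 3 Yy1-KO values. The log2 fold change was 0.11 (SE 0.41, 95% interval -0.84 to 1.06, limma adjusted p = 0.963), and it turned to -0.20 without WT replicate 2. The gene (ENSMUSG00000021756) spans chromosome 13 from 112464070 to 112510086 on the plus strand. Il6ra, the IL-6-binding chain that pairs with gp130, was lower in level than Il6st, with 1.80, 2.34 and 1.74 RPKM in Yy1-KO and 2.61, 2.61 and 3.32 RPKM in WT. Il27ra, the other chain of the IL-27 receptor, averaged 8.25 ± 2.05 RPKM in Yy1-KO and 17.2 ± 4.0 RPKM in WT, a log2 fold change of -1.02 (SE 0.31, limma adjusted p = 0.538).

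Csf3r, the receptor for G-CSF and a driver of neutrophil production, had 11.2, 19.8 and 13.6 RPKM in Yy1-KO replicates 1 to 3, against 34.7, 30.8 and 6.07 RPKM in WT replicates 1 to 3. WT was split, with replicates 1 and 2 above every Yy1-KO library and replicate 3 below every one of them. The means were 14.9 ± 4.44 RPKM in Yy1-KO and 23.9 ± 15.5 RPKM in WT, and the log2 fold change was -0.37 (SE 0.62, 95% interval -1.83 to 1.08, limma adjusted p = 0.915). It was -1.15 without WT replicate 3 and turned to 0.06 without WT replicate 1. The gene (ENSMUSG00000028859, chromosome 4: 126024550 to 126044440, plus strand) had 701 to 1249 reads in Yy1-KO and 324 to 1793 in WT.

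Maturing granulocytes express Csf3r as well. The 10 granulocyte markers measured summed to 35.8, 307 and 57.4 RPKM in Yy1-KO replicates 1 to 3 and to 71.0, 175 and 17.7 RPKM in WT replicates 1 to 3. WT replicate 3 was thus lowest in both Csf3r and this sum, and within Yy1-KO replicate 2 was highest in both. The order of the 3 Yy1-KO replicates was the same in both. Within WT, replicate 1 had the highest Csf3r with a smaller sum than replicate 2. Across genotypes, Yy1-KO replicate 2 had the largest sum with less Csf3r than WT replicates 1 and 2. The S100 protein gene S100a9 was the most abundant of them on average, with 12.1, 149 and 28.2 RPKM in Yy1-KO and 36.3, 86.4 and 3.63 RPKM in WT. Ngp came next, with 3.86, 39.2 and 13.6 RPKM in Yy1-KO and 12.1, 26.8 and 0 RPKM in WT. Elane, the neutrophil elastase gene, was listed at 0 in all libraries but 2, Yy1-KO replicate 2 with 3.23 RPKM and WT replicate 2 with 2.77 RPKM. The part of granulocyte RNA in the Csf3r values was not tested.

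Csf2rb, the signalling chain shared by the receptors for IL-3, IL-5 and GM-CSF, had 7.22, 5.94 and 2.74 RPKM in Yy1-KO replicates 1 to 3 and 2.94, 8.29 and 2.0 RPKM in WT replicates 1 to 3. The highest and the lowest of the 6 values were both in WT libraries. The log2 fold change was 0.36 (SE 0.60, 95% interval -1.03 to 1.75, limma adjusted p = 0.912). Without WT replicate 3 it was -0.01, and without that library and Yy1-KO replicate 1 it was -0.27. The gene (ENSMUSG00000071713, chromosome 15: 78325752 to 78353847, plus strand) was among the thinner members, with 390 to 915 reads in Yy1-KO and 215 to 971 in WT.

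Mice carry a neighbouring copy of this chain, Csf2rb2, whose product serves the IL-3 receptor alone. It lies at chromosome 15: 78282507 to 78305721 on the other strand, is close in sequence to Csf2rb, and can share reads with it. Csf2rb2 had 4.04, 5.13 and 2.18 RPKM in Yy1-KO and 7.54, 3.70 and 11 RPKM in WT, with a log2 fold change of -0.84 (SE 0.51, limma adjusted p = 0.744). The ratio of Csf2rb to Csf2rb2 was 1.79, 1.16 and 1.26 in Yy1-KO libraries and 0.390, 2.24 and 0.182 in WT libraries. It was above 1 in each Yy1-KO library and below 1 in WT replicates 1 and 3. The sum of both was steadier in WT, at 10.5 to 13 RPKM, than either gene alone, and was 4.92 to 11.3 RPKM in Yy1-KO. How the deposited counting divided reads between the copies is not known, so the level of each is uncertain.

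The ligand-binding chains that pair with these beta chains varied among WT libraries. Csf2ra, for GM-CSF, had 6.40, 10.4 and 4.07 RPKM in Yy1-KO and 19.5, 8.02 and 2.56 RPKM in WT. Il3ra, for IL-3, had 0.948, 1.68 and 0.441 RPKM in Yy1-KO and 6.11, 1.11 and 0 RPKM in WT. Both were highest in WT replicate 1, and neither separated the genotypes.

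Ifnar1 and Ifnar2 encode the chains of the receptor for type I interferons. Ifnar1 stood at 9.82, 9.01 and 8.09 RPKM in Yy1-KO replicates 1 to 3, against 9.74, 12.7 and 14.6 RPKM in WT replicates 1 to 3. The library labelled Yy1-KO replicate 1 was level with WT replicate 1, and the other Yy1-KO libraries lay below all of WT. The log2 fold change was -0.42 (SE 0.27, 95% interval -1.06 to 0.21, limma adjusted p = 0.752), and it stayed between -0.58 and -0.30 when each library was left out in turn. Ifnar2 stood at 11.9, 19.0 and 13.9 RPKM in Yy1-KO and 10.6, 13.6 and 17.7 RPKM in WT. Its log2 fold change was 0.09 (SE 0.29, 95% interval -0.59 to 0.78, limma adjusted p = 0.953). That sign turned without WT replicate 1 (-0.08) and without Yy1-KO replicate 2 (-0.09).

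Set against each other within a library, the ratio of Ifnar1 to Ifnar2 was 0.827, 0.475 and 0.581 in Yy1-KO replicates 1 to 3 and 0.915, 0.933 and 0.824 in WT replicates 1 to 3. WT libraries were close together, and Yy1-KO replicates 2 and 3 lay below all of them, while the library labelled Yy1-KO replicate 1 lay just above the lowest WT value. This ratio was formed after the values were seen and is given with no test. The 2 genes are neighbours on the plus strand of chromosome 16, Ifnar2 (ENSMUSG00000022971) from 91372783 to 91405589 and Ifnar1 (ENSMUSG00000022967) from 91485238 to 91507441. The annotated gene Gm21970 overlaps Ifnar2 on the same strand, and their reads cannot be told apart. The cluster also holds Il10rb, a chain of the IL-10 receptor, and Ifngr2, the second chain of the interferon gamma receptor. Il10rb averaged 4.35 ± 2.64 RPKM in Yy1-KO and 6.08 ± 1.67 RPKM in WT, with overlap.

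**Figure D3:**
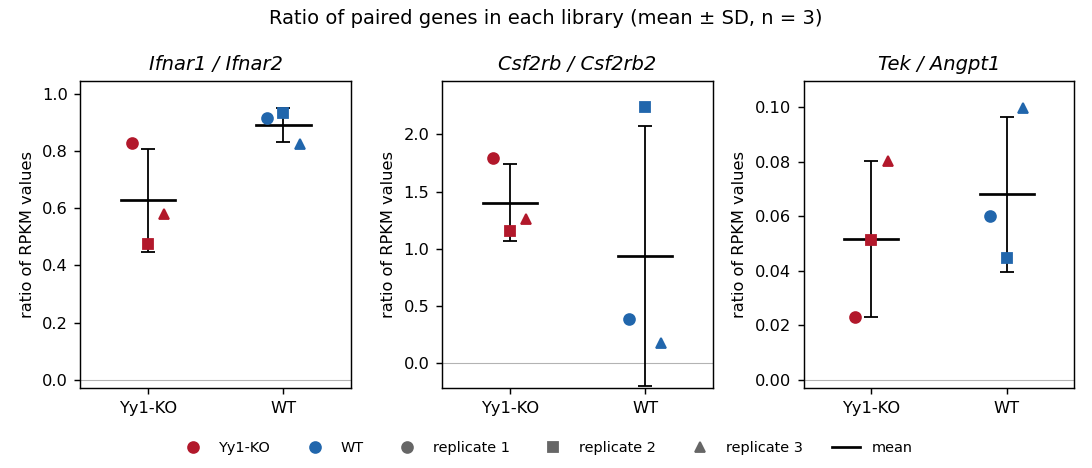
Ratio of RPKM values of 3 gene pairs in each Yy1-KO and WT library, with the mean and SD of each genotype. The Ifnar1 to Ifnar2 ratio lies at 0.475 to 0.827 in Yy1-KO and 0.824 to 0.933 in WT, and the Csf2rb to Csf2rb2 ratio spans 0.182 to 2.24 within WT.

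Ifngr1, the ligand-binding chain of the interferon gamma receptor, had 32.2, 34.4 and 28.2 RPKM in Yy1-KO replicates 1 to 3, against 37.8, 36.9 and 36.0 RPKM in WT replicates 1 to 3. All Yy1-KO values were below all WT values, by a small margin. The means were 31.6 ± 3.16 RPKM in Yy1-KO and 36.9 ± 0.913 RPKM in WT, and the log2 fold change was -0.23 (SE 0.17, 95% interval -0.63 to 0.18, limma adjusted p = 0.797). The gene (ENSMUSG00000020009, chromosome 10: 19591949 to 19610229, plus strand) had 1566 to 1713 reads in Yy1-KO and 1390 to 1694 in WT. Ifngr2 was far lower in level, with 1.79, 3.05 and 3.21 RPKM in Yy1-KO and 2.34, 3.03 and 0.0817 RPKM in WT.

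Downstream of these receptors, Jak1, the kinase used by gp130 and all interferon receptors, averaged 34.0 ± 2.52 RPKM in Yy1-KO and 41.3 ± 2.70 RPKM in WT without overlap (limma adjusted p = 0.744). Stat3, the main STAT of gp130 and G-CSF signalling, stood at 11.5, 19.3 and 12 RPKM in Yy1-KO and 23.4, 22.5 and 26.2 RPKM in WT. Its log2 fold change was -0.77 (SE 0.26, limma adjusted p = 0.567). Stat5a, a STAT of IL-3 and GM-CSF signalling, stood at 13.9, 13.5 and 10.6 RPKM in Yy1-KO and 19.0, 18.8 and 24.8 RPKM in WT, with a log2 fold change of -0.70 (SE 0.24, limma adjusted p = 0.568). Jak1, Stat3 and Stat5a were each lower in every Yy1-KO library than in any WT library, and none passed the test. Over all tested genes 6.87% separated in that direction. The annotated ends of Stat3 and Stat5a overlap on opposite strands of chromosome 11, where reads of one cannot be told from reads of the other. Stat5b, the close paralog of Stat5a, averaged 28.7 ± 6.87 RPKM in Yy1-KO and 31.9 ± 5.67 RPKM in WT. Jak2, used by the beta chain and the interferon gamma receptor, averaged 28.9 ± 2.30 RPKM in Yy1-KO and 32.6 ± 8.57 RPKM in WT. Tyk2, used by the type I receptor, averaged 7.23 ± 3.94 RPKM in Yy1-KO and 6.63 ± 3.81 RPKM in WT. Stat2, a STAT of type I interferon signalling, averaged 14.5 ± 6.12 RPKM in Yy1-KO and 14.8 ± 3.55 RPKM in WT. These and Stat5b all overlapped between genotypes.

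Feedback inhibitors of the pathway differed among themselves. Socs2, which dampens growth hormone and STAT5 signalling, had 6.00, 8.79 and 7.99 RPKM in Yy1-KO and 3.11, 4.02 and 0.0922 RPKM in WT (limma adjusted p = 0.628). Socs1, an inhibitor of interferon signalling, had 5.37, 1.64 and 2.94 RPKM in Yy1-KO and was listed at 0, 1.48 and 0 RPKM in WT (limma adjusted p = 0.601). The values of both were higher in every Yy1-KO library than in any WT library, where 7.63% of all tested genes were. Coverage was thin in WT, with at most 69 reads of Socs1 in a library and 13 reads of Socs2 in replicate 3. Socs1 met the filter of 1 RPKM through its Yy1-KO libraries, so its entry to the test depended on the group where it was higher. Usp18, which blocks signalling at the IFNAR2 chain, had 4.0, 8.91 and 12.8 RPKM in Yy1-KO and 3.02, 1.25 and 4.46 RPKM in WT (limma adjusted p = 0.631), overlapping by 1 library. Socs3, the inhibitor that binds gp130, also overlapped, with 3.04, 4.31 and 0.443 RPKM in Yy1-KO and 5.89, 3.82 and 1.80 RPKM in WT.

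As lists, the gp130 and G-CSF genes had 13 tested members, of which 0 passed over all genes, 1 had an unadjusted limma p under 0.05 with a higher value (Socs1) and 2 with a lower value (Il27ra and Stat3), and the median log2 fold change was -0.28. The beta chain list had 10 tested members with 0 passing, 1 higher (Socs2) and 1 lower (Stat5a) at the unadjusted level, and a median of -0.18. The interferon receptor and signalling list had 12 with 0 passing, 2 higher (Socs1 and Usp18) and 0 lower, and a median of -0.03. At that unadjusted level 4.73% of all tested genes were higher and 3.06% lower. Jak1, Jak2, Tyk2 and Socs1 stand in more than one of these lists, so the lists are not independent of each other. Socs1 was counted in them because its Yy1-KO values met the filter.

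Interferon-induced genes are the targets of the interferon receptors. Of 31 tested, 0 passed over all genes, 20 lay above 0 and 11 below, and the median log2 fold change was 0.25. Over all tested genes, 48.1% lay below 0 and the median was 0.02. Among the receptor chains, Ifnar1 (-0.42, SE 0.27) and Ifngr1 (-0.23, SE 0.17) lay below 0, and Ifnar2 (0.09, SE 0.29) and Ifngr2 (0.79, SE 0.78) above it. Ifngr2 had 5 reads in WT replicate 3, and its other WT values lay within the Yy1-KO range. The sign of Ifnar2 turned when single libraries were left out. Of the interferon-induced genes, 5 were higher and 0 lower at an unadjusted limma p under 0.05. Over all tested genes 4.73% were higher and 3.06% lower. The 5 were Ifit1, Oas2, Oas3, Irf7 and Ifi27. Ifit1, which binds foreign RNA, averaged 13.4 ± 1.25 RPKM in Yy1-KO and 5.30 ± 1.5 RPKM in WT (log2 fold change 1.29, SE 0.31, limma adjusted p = 0.429). Irf7, an interferon regulatory factor, averaged 15.1 ± 2.73 RPKM in Yy1-KO and 5.76 ± 3.03 RPKM in WT (limma adjusted p = 0.557). Isg15, a classic member, spanned 1.29 to 26.6 RPKM within Yy1-KO and 1.64 to 28.5 RPKM within WT and had a log2 fold change of 0.03 (SE 1.18).

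Il1r1, the signalling receptor for IL-1, stood at 2.84, 2.43 and 3.69 RPKM in Yy1-KO replicates 1 to 3, against 12.4, 5.67 and 3.78 RPKM in WT replicates 1 to 3. The groups did not overlap, but Yy1-KO replicate 3 and WT replicate 3 nearly touched, and WT replicate 1 was far above the rest. The means were 2.99 ± 0.643 RPKM in Yy1-KO and 7.28 ± 4.52 RPKM in WT. At -1.02 (SE 0.50, 95% interval -2.18 to 0.14), its log2 fold change was the most negative among the 9 members (limma adjusted p = 0.680), and it was -0.58 without WT replicate 1. The gene (ENSMUSG00000026072, chromosome 1: 40225080 to 40317257, plus strand) had 271 to 459 reads in Yy1-KO and 356 to 1018 in WT. The annotated gene Gm38070 lies within it on the same strand and had at most 0.711 RPKM in Yy1-KO and 0.239 RPKM in WT.

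Il1rap, the accessory chain that IL-1 signalling needs, was low, with 0.531, 1.61 and 1.08 RPKM in Yy1-KO and 0.688, 2.05 and 3.88 RPKM in WT. Of 18 tested genes of the IL-1 family and its pathway, 0 passed over all genes and 0 had an unadjusted limma p under 0.05, and their median log2 fold change was -0.12. Il1rl2, the IL-36 receptor gene that follows Il1r1 on the chromosome, had 2.10, 2.10 and 0.308 RPKM in Yy1-KO and 6.00, 2.36 and 2.94 RPKM in WT. Its log2 fold change was -1.18 (SE 0.67, limma adjusted p = 0.723). It was picked after its values were seen and did not overlap between genotypes, where 6.87% of all tested genes were lower without overlap. The adaptor gene Myd88 had 17.9, 10.2 and 10.9 RPKM in Yy1-KO and 9.76, 7.64 and 19.7 RPKM in WT, which overlapped. Irak1, the kinase below it, was steady at 32.4 to 37.6 RPKM in Yy1-KO and 29.3 to 35.6 RPKM in WT.

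**Figure D4:**
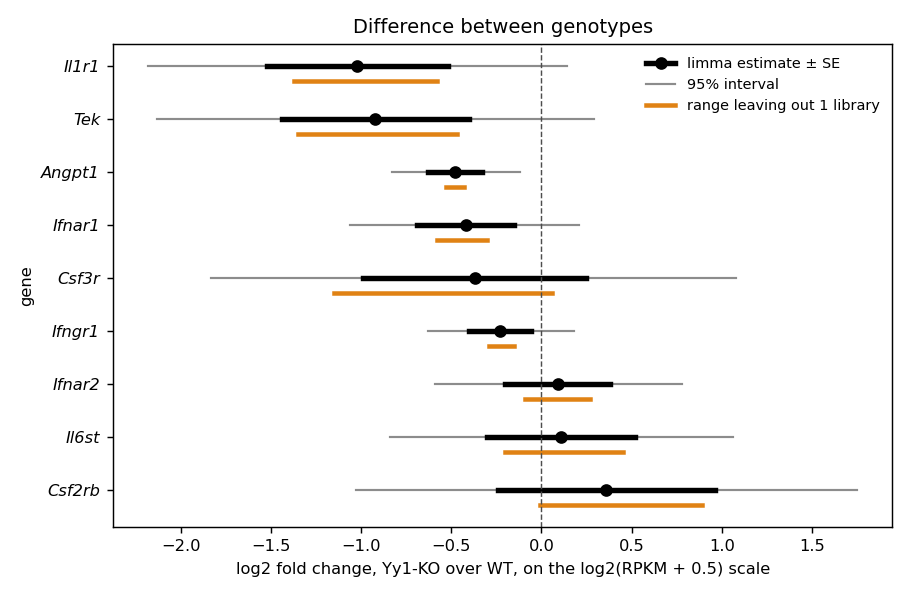
Log2 fold change of Yy1-KO over WT for each of the 9 genes from limma (point, thick bar for 1 standard error, thin bar for the 95% interval) and its range when each library is left out in turn (orange). Only the interval of Angpt1, -0.83 to -0.12, stays clear of 0, before any adjustment for the number of genes tested.

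Tests on reads recovered from the RPKM values gave the same picture. A limma-voom fit of 13114 genes called 8 of them (0.0610%) and 0 of the 9 members, with Angpt1 at an adjusted p of 0.276. In that fit 2 members, Angpt1 and Il1r1, had an unadjusted limma-voom p under 0.05, where 7.83% of genes did. Both were lower, where 3.43% of genes were. The authors' deposited table called 24 of 15553 genes (0.154%) and 0 of the 9 members. At an unadjusted p under 0.05 the authors' deposited table held 3 members, Angpt1, Tek and Il1r1, and 8.02% of its genes. Members' voom log2 fold changes differed from those of the authors' deposited table by at most 0.013.

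Among 20 other tested cytokine and growth factor receptor genes, 0 passed in limma, 14 lay below 0 and 6 above, and the median log2 fold change was -0.28. At an unadjusted limma p under 0.05 there were 2 lower and 0 higher, the growth hormone receptor gene Ghr and Pdgfrb, both at low levels. Both met the filter of 1 RPKM through their WT libraries, so these counts depend on the filter. Tyro3, of the same list, did not meet it and was not tested. It went the other way, at 0.636 to 1.02 RPKM in Yy1-KO and 0 to 0.187 RPKM in WT. Over all tested genes 3.06% were lower and 4.73% higher. Ghr averaged 0.883 ± 0.522 RPKM in Yy1-KO and 3.04 ± 0.567 RPKM in WT, and Pdgfrb 0.981 ± 0.596 RPKM in Yy1-KO and 3.20 ± 0.691 RPKM in WT.

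**Figure D5:**
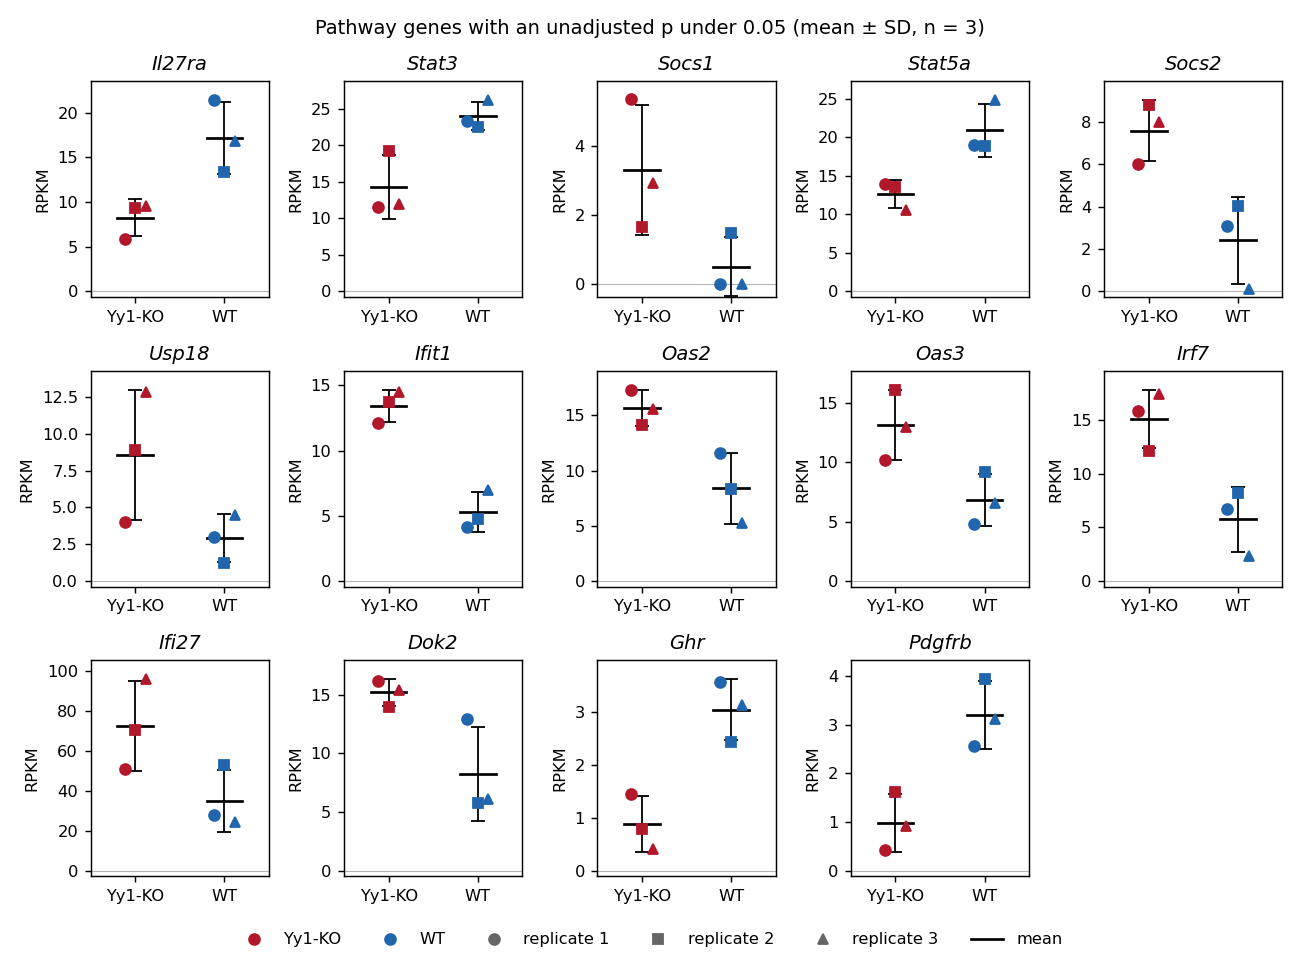
RPKM in each library of the 14 genes from the pathway and receptor lists with an unadjusted limma p under 0.05, with the mean and SD of each genotype. They were picked by that p, 9 of them are higher and 5 lower in Yy1-KO, and none passed the adjusted threshold.

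Other blood cell markers varied beside these values. The 11 megakaryocyte and platelet markers summed to 103 to 194 RPKM in Yy1-KO and 70.7 to 110 RPKM in WT, and the 7 erythroid markers to 65.3 to 153 RPKM in Yy1-KO and 46.7 to 71.8 RPKM in WT. The platelet chemokine gene Pf4 stood at 14.5 to 49.0 RPKM in Yy1-KO and 3.75 to 11.1 RPKM in WT, and the platelet glycoprotein gene Gp9 at 6.03 to 8.54 RPKM in Yy1-KO and 1.61 to 2.75 RPKM in WT. Itga2b, the platelet integrin gene, averaged 23.4 ± 5.59 RPKM in Yy1-KO and 14.1 ± 4.47 RPKM in WT. These 3 were picked by an unadjusted p under 0.05, and none overlapped between genotypes. Over all tested genes, 7.63% were higher in Yy1-KO without overlap. Cd9, the most abundant of this list on average, overlapped, at 34.6 to 61.6 RPKM in Yy1-KO and 21.4 to 57.8 RPKM in WT. The globin gene Hbb-bs stood at 28.8, 15.6 and 78.8 RPKM in Yy1-KO and 3.50, 14.4 and 15 RPKM in WT. Its near-identical neighbour Hbb-bt overlapped, at 16.3, 22.8 and 56.1 RPKM in Yy1-KO and 37.2, 16.0 and 39.5 RPKM in WT. The log2 fold change of Hbb-bt was -0.05 (SE 0.51). Reads can be shared by these globin genes, so the level of each is uncertain. Monocyte and macrophage markers summed to 6.63 to 25.3 RPKM in Yy1-KO and 4.14 to 12.9 RPKM in WT. Among them Cd68, a lysosomal protein gene of macrophages, was at 2.06, 5.82 and 9.49 RPKM in Yy1-KO and 0.0616, 2.72 and 0 RPKM in WT. Cd68 met the filter for testing through its Yy1-KO libraries. Ms4a6c, the most abundant of that list on average, overlapped, at 3.64 to 13.2 RPKM in Yy1-KO and 4.08 to 9.75 RPKM in WT. An unadjusted limma p under 0.05 with higher values was found for 3 of 9 tested megakaryocyte and platelet markers (Pf4, Gp9 and Itga2b). It was also found for 1 of 5 erythroid markers (Hbb-bs), 1 of 2 monocyte and macrophage markers (Cd68) and 0 of 7 granulocyte markers. Over all tested genes 4.73% did so, and 0 of these 5 markers passed the adjusted test. Of the B cell list, Cd79b was measured, at 9.15 to 21.4 RPKM in Yy1-KO and 13.3 to 28.6 RPKM in WT. The T and NK cell gene Nkg7 was at 3.99 to 8.72 RPKM in Yy1-KO and 4.76 to 15.3 RPKM in WT. Cd4, of the same list, was at most 0.468 RPKM in Yy1-KO and 0.339 RPKM in WT. The part of these cells in the members' values was not tested.

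For the 3 members that varied most over the 6 libraries, the tested genes with the most similar pattern were sought by the root mean square difference of log2 values, each centred on its own mean. For Csf3r they were Wdr19 (0.222) and Gm38346 (0.239). For Tek they were Cyp2j9 (0.158) and Wdr24 (0.172), which shared with it the highest value in WT replicate 3 and the lowest in the library labelled Yy1-KO replicate 1. For Il1r1 they were Tfap4 (0.205) and Gm37818 (0.232), both highest in WT replicate 1 as Il1r1 was.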

How the data were processed

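RNA was measured by sequencing in 6 libraries, 3 labelled Yy1-KO and 3 labelled WT, made with an RNA-amplifying kit (Ovation RNA-Seq System V2), per the labels' protocols. The authors' build was mm10 and their tools included Subread, featureCounts, edgeR and limma, per the submitters' processing notes, which give no versions or settings here. The library columns of the deposited table behaved as RPKM: multiplied by exonic lengths of GENCODE M21 (GRCm38), 71.7% of 15465 genes were whole reads in all libraries, within 0.02 reads. The reads of Angpt1, Csf2rb and Ifnar1 were not whole and are estimates. The deposited log2 fold changes and p-values are the authors' comparison per the file headers, with an unnamed test. The filter that left 15553 genes, and any strand setting, are not given in the sources used here. Depth per library was 15102984 to 21757031 recovered reads; counting error covers reads, not molecules.

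Here limma 3.58.1 (R 4.3.3), with a variance trend and robust fitting off, was run on log2(RPKM + 0.5), a scale that understates the change of low genes, with genotype as the term. Limma-voom on recovered reads used the library sizes implied by the values. The fits were tested on simulated data. Members, 16 gene lists and tests were chosen with earlier results of these data known. Named genes were the members, their receptor partners, kinases and STATs, list genes with an unadjusted p under 0.05 or called in the deposited table, and the most abundant markers. Genes mentioned outside that rule (Socs3, Isg15, Ifit2, Il1rl2, Myd88, Irak1, Tyro3, Elane, Kdr, Stab2, Pecam1, Emcn, Vwf, Cxcl12, Kitl, Col1a1 and Vcam1) were chosen after their values were seen. Of the partner genes, Angpt2, Il1r2 and Il5ra were absent from the deposited table. Other listed genes enter the list counts without being named, and some are not reported and left out of those counts. Alternatives covered the pseudocount, filter, scaling, variance model, block, read-based test and each library left out.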

Additional observations from a re-analysis of the deposited data

How the results depend on the processing

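Across 17 alternatives, no member passed, with 1 exception. For Angpt1 the log2 fold change was -0.48 with adjusted p = 0.0261 in limma-voom with a replicate block, which pairs libraries by number; the adjusted p of its other alternatives reached 0.896. The numbers are not stated to mark shared mice or days. Deviations of same-numbered libraries correlated at 0.0152, 0.0593 and 0.0467, and those of other pairs at -0.0758 to 0.0353, all small. Each library correlated best with its own number except WT replicate 1, which did so with Yy1-KO replicate 2. The replicate block left the count of limma calls at 0 and gave 72 calls in limma-voom, against 8 without it. Leaving out single libraries gave 0 to 1 limma calls. The number of members below 0 was 5 to 7 throughout. Their median log2 fold change ran from -0.43 to -0.21 with each library left out in turn and was -0.27 without WT replicate 3 and Yy1-KO replicate 1 together, an alternative chosen after seeing the data. Of 152 recomputed member values, 6 changed sign. They were Csf2rb without WT replicate 3 (-0.01) and without both libraries (-0.27), Csf3r without WT replicate 1 (0.06), Ifnar2 without WT replicate 1 (-0.08) and without Yy1-KO replicate 2 (-0.09), and Il6st without WT replicate 2 (-0.20). The cause was not tested. Over all alternatives the values ran from -0.27 to 0.89 for Csf2rb, -1.15 to 0.06 for Csf3r, -0.09 to 0.42 for Ifnar2 and -0.20 to 0.55 for Il6st. Angpt1, Ifnar1, Ifngr1, Il1r1 and Tek stayed below 0 under each alternative that tested them; Il1r1 was not tested at the filter of 5 RPKM. With 3 libraries per genotype, the standard errors were built on the spread between libraries. Counting error, from 215 or more reads of a member in a library, was not estimated apart from it.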
